A study of Mus musculus with 15 samples.

Results

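The amino acid and peptide transporters described here are the 65 genes, of 18820 measured, whose symbols belong to the solute carrier families Slc1, Slc3, Slc6, Slc7, Slc15, Slc36, Slc38 and Slc43. They were chosen by symbol alone, and each gene is represented by its brightest probe set, by the mean of all arrays. The families hold 7, 1, 20, 14, 5, 4, 11 and 3 of the genes. The symbol Slc7a6os also fits the naming rule, although it names the gene opposite Slc7a6 and encodes no transporter. Slc3a1, Slc7a7 and Slc7a10 share their probe sets with a neighbouring gene and are not analysed here. RNA was measured in confluent 2D monolayers of organoid cells from the duodenum of female C57BL/6J mice aged 9 weeks, grown by all groups in the same W-ENR medium with EGF, Noggin, WNT3A and R-spondin. For 6 h the apical side received CAS (casein from bovine milk), SBM (soybean meal), SDPP (porcine spray-dried plasma protein) or YMW (larvae of the mealworm Tenebrio molitor), or DMEM/F12 alone in the MC. The labels give the dose of each source as 4% w/v, and the methods add a mass per volume that is not equal to it. Each of the 5 groups has 3 arrays, each from 3 pooled wells, and no source ties a replicate number to 1 of the 3 mice. The purpose of the comparison was to learn how undigested protein sources act on the intestinal epithelium.

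Absorptive enterocytes take up the products of protein digestion through carriers of the brush border and release them to the blood through carriers of the basolateral membrane. Peptides enter with protons, while free amino acids enter with sodium, with protons or in exchange for other amino acids. Other members of these families serve the cell itself, and several of those are known targets of ATF4, the transcription factor that acts when amino acids are short or the endoplasmic reticulum is stressed.

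Levels are log2 values of the RMA-normalized intensity, and they are compared here between arrays and never between genes. The 95th percentile of the 1157 olfactory and vomeronasal receptor genes, a log2 intensity of 3.91, served as the background. Of the 65 transporter genes, 38 had a mean above it and 27 did not, beside 12880 above it of all 18820 genes. Values come from 15 arrays in all, and their number limits the precision. The study's threshold, as its methods give it, asks for a fold change of 1.5 or more and an unadjusted p below 0.05. Elsewhere the study writes 1.5 as a log fold change, and that reading is among the alternatives at the end. The p here is from limma, and the Benjamini-Hochberg adjusted p over all 18820 genes is given beside it. All 9 epithelial markers and all 5 markers of the duodenum were above background. Of the markers of fibroblasts, immune cells, endothelium, and neurons and glia, 5 of 9, 4 of 8, 2 of 6 and 3 of 5 were above it. The means of these lists had medians over the treated arrays of 3.99, 4.27, 3.95 and 4.04, close to the background.

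MC replicate 1 stood apart from MC replicates 2 and 3 in many genes, which bears on every comparison with the MC. For 57 of the 65 transporter genes, MC replicate 1 fell between the lowest and the highest of the 12 treated arrays. MC replicate 2 lay above that range for 14 genes and below it for 17, and MC replicate 3 lay above it for 14 and below it for 12. Thus 12.3%, 47.7% and 40.0% of the transporters lay outside the range, beside 15.8%, 33.3% and 40.3% of all genes. The mean of the 20 enterocyte markers was 8.40 in MC replicate 1, 10.53 in MC replicate 2 and 10.57 in MC replicate 3. It ran from 8.18 to 9.89 over the treated arrays, with a median of 8.50. The mean of 14 stem cell markers was 8.96, 8.22 and 7.80 in the same MC arrays and 8.65 to 9.08 in the treated arrays. In such bulk RNA, fewer cells of a type and less RNA per cell cannot be told apart. The fit pools the variance of all groups, so its SE and p are too small for a comparison with the MC wherever the spread of the MC was the larger.

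**Figure D1:**
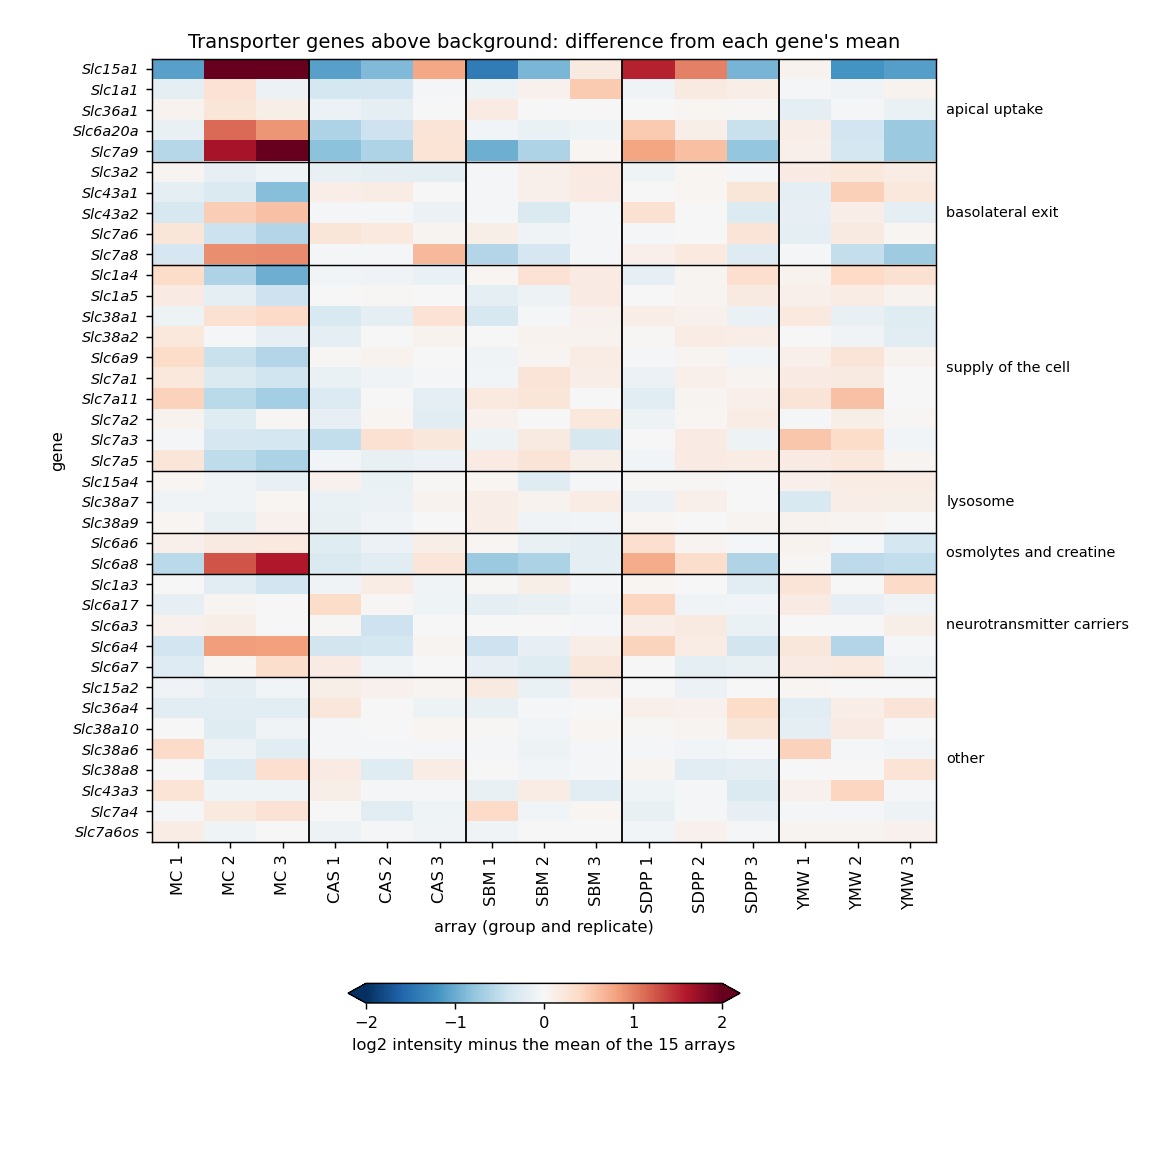
The 38 transporter genes above background (vertical axis, grouped by role) on the 15 arrays (horizontal axis, by group and replicate), coloured by log2 intensity minus the gene's mean over all arrays, with colours ending at −2 and 2. MC replicates 2 and 3 are high for Slc15a1, Slc7a9, Slc6a20a, Slc7a8, Slc6a8 and Slc6a4 and low for Slc1a4, Slc7a5 and Slc7a11, while MC replicate 1 resembles the treated arrays for most genes.

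With CAS, 3 of the 65 transporters passed the study's threshold as lower than in the MC and none as higher. With SBM, 7 were lower and none higher. With YMW, 6 were lower and 2 higher. With SDPP none passed in either direction. Among all genes, 2.04%, 2.14%, 0.499% and 2.13% were lower with CAS, SBM, SDPP and YMW, and 1.82%, 1.37%, 1.13% and 1.74% were higher. The transporters that passed made up 4.62%, 10.8%, 0% and 12.3% of the members with the 4 sources in the same order. No transporter passed an adjusted p of 0.05, and the lowest adjusted p of the 4 comparisons was 0.110, 0.161, 0.348 and 0.0919. Among all genes 0.654%, 0.00531%, 0% and 0.00531% passed it. At an unadjusted p under 0.05 with no demand on the fold change, there were 10, 11, 7 and 17 transporters, or 15.4%, 16.9%, 10.8% and 26.2% of the members, beside 16.5%, 18.2%, 12.0% and 19.0% of all genes. In the 4 comparisons, 9 members passed with at least 1 source and 56 with none. Of the 18 member values past the threshold, 16 were lower and 2 were higher.

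The median change of the family was near 0. The median log2 fold change for CAS, SBM, SDPP and YMW was −0.02, −0.05, −0.00 and 0.02, beside −0.00, −0.01, 0.00 and 0.02 for all genes. The median size of the change was 0.13 to 0.14 for the transporters and 0.11 to 0.12 for all genes. For the 38 transporters above background it was 0.20, 0.17, 0.17 and 0.26 with CAS, SBM, SDPP and YMW. For all genes above background it was 0.13, 0.15, 0.13 and 0.15. Groups did not overlap with the MC for 10, 10, 7 and 10 members, which is 15.4%, 15.4%, 10.8% and 15.4% of them, beside 13.2%, 13.9%, 10.8% and 14.5% of all genes. Of the 18 values past the threshold, only those of Slc6a19 with SBM and with YMW came from groups that did not overlap. There the nearest MC array was replicate 1, at 3.53, and since it and the SBM and YMW arrays were all below background, their order carries no information. All 4 comparisons share the same MC arrays.

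Carriers of apical uptake held most of the transporters that were lower. Of 8 measured members of this list, 3 were lower with CAS, 4 each with SBM and YMW and none with SDPP, and none was higher with any source. Their median log2 fold change with CAS, SBM, SDPP and YMW came to −0.57, −0.47, −0.43 and −0.60, and that of all genes lay between −0.01 and 0.02. Slc15a1, Slc6a19, Slc6a20a and Slc7a9 made up all 11 of these calls. Of the 8 genes, 5 had a mean above background. Each median fell between Slc6a20a, the least changed of the 4 called genes, and the genes without a call, so it describes neither set. With CAS, SBM and SDPP the nearest gene without a call was Slc6a14, which was above background on no array.

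Slc15a1 encodes PEPT1, the proton-coupled carrier of dipeptides and tripeptides in the brush border. Its log2 intensity in the MC was 3.89, 7.30 and 7.66 in replicates 1, 2 and 3. It was 3.89, 4.09 and 5.74 with CAS, 3.58, 4.06 and 5.14 with SBM, 6.51, 5.98 and 4.04 with SDPP, and 5.03, 3.77 and 3.87 with YMW. MC replicate 1 was thus just under background and inside the range of the treated arrays, and both other MC arrays lay above every treated array. CAS replicate 1, SBM replicate 1 and YMW replicates 2 and 3 were also under background, so the size of the changes with these sources is limited by the signal. The log2 fold change against the MC was −2.02 with SBM (SE 0.88, adjusted p = 0.246) and −2.06 with YMW (SE 0.88, adjusted p = 0.226), both past the study's threshold. It was −1.71 with CAS (adjusted p = 0.352) and −0.77 with SDPP (adjusted p = 0.745), which did not pass. Without MC replicate 1 the change was −3.22 with SBM and −3.26 with YMW. Without MC replicate 2 it was −1.51 and −1.55, without MC replicate 3 it was −1.33 and −1.37, and neither pair passed the threshold.

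Slc6a19 encodes B0AT1, the main sodium-dependent carrier of neutral amino acids at the brush border. The MC arrays gave 3.53, 5.28 and 5.67 in replicates 1, 2 and 3. The values were 3.29, 3.46 and 3.54 with CAS, 3.37, 3.24 and 3.42 with SBM, 4.47, 4.05 and 3.52 with SDPP, and 3.41, 3.22 and 3.09 with YMW. All 9 arrays of CAS, SBM and YMW were at or below background, while 2 MC arrays and 2 SDPP arrays were above it. With a group wholly below background, only a bound on the fold can be given, with each such array set at the background. By this bound Slc6a19 was at least 1.88-fold lower with CAS, SBM and YMW. The adjusted p from limma, which was fitted to the values without this bound, was 0.110, 0.161 and 0.0919. SDPP gave a log2 fold change of −0.81 (SE 0.39, adjusted p = 0.422), short of the threshold. The calls with CAS, SBM and YMW remained when any 1 of the MC arrays was left out, and none passed with MC replicate 1 as the only control. Since MC replicate 1 was itself below background, no difference from it is given.

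Slc7a9 encodes b0,+AT, the light chain of the exchanger that brings cystine and basic amino acids into the cell. Its heavy chain is the product of Slc3a1. In MC replicates 1, 2 and 3 the log2 intensity was 6.28, 8.50 and 8.91. It was 6.03, 6.23 and 7.12 with CAS, 5.87, 6.23 and 6.90 with SBM, 7.65, 7.46 and 6.07 with SDPP, and 6.95, 6.50 and 6.11 with YMW. Again MC replicates 2 and 3 were above all 12 treated arrays and MC replicate 1 was among them. The log2 fold change was −1.44 with CAS (adjusted p = 0.226), −1.56 with SBM (adjusted p = 0.200) and −1.38 with YMW (adjusted p = 0.220), with an SE of 0.58. With SDPP it was −0.84 (adjusted p = 0.564). Against MC replicate 1 alone the sign turned with CAS, SBM and YMW, to 0.18, 0.056 and 0.24.

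Slc6a20a encodes SIT1, the sodium-dependent carrier of proline. Its log2 intensity was 5.82, 7.10 and 6.85 in MC replicates 1, 2 and 3. It was 5.35, 5.55 and 6.23 with CAS, 5.92, 5.84 and 5.88 with SBM, 6.49, 6.09 and 5.53 with SDPP, and 6.10, 5.59 and 5.23 with YMW. The 3 SBM arrays were close together, and they overlapped the MC only through its replicate 1. It was lower, with a log2 fold change of −0.88 with CAS (adjusted p = 0.199), −0.71 with SBM (adjusted p = 0.269) and −0.95 with YMW (adjusted p = 0.155), with an SE of 0.33. The call with SBM was lost in 15 of its 28 alternatives, with 1 of them turning its sign.

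The other apical carriers gave no call. Slc1a1, which carries glutamate and aspartate, had MC values of 5.79, 6.25 and 5.86 and treated values from 5.61 to 6.50 with a median of 5.95. Slc36a1, a proton-coupled carrier of small amino acids, had MC values of 6.18, 6.35 and 6.23 and treated values from 5.93 to 6.28. For Slc36a1 no CAS, SDPP or YMW array reached the lowest MC array, yet the log2 differences of −0.25, −0.12 and −0.26 were under 1.5-fold. Slc6a20b, the paralogue of Slc6a20a, had 1 array above background, and Slc6a14, a carrier of neutral and basic amino acids, had none.

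**Figure D2:**
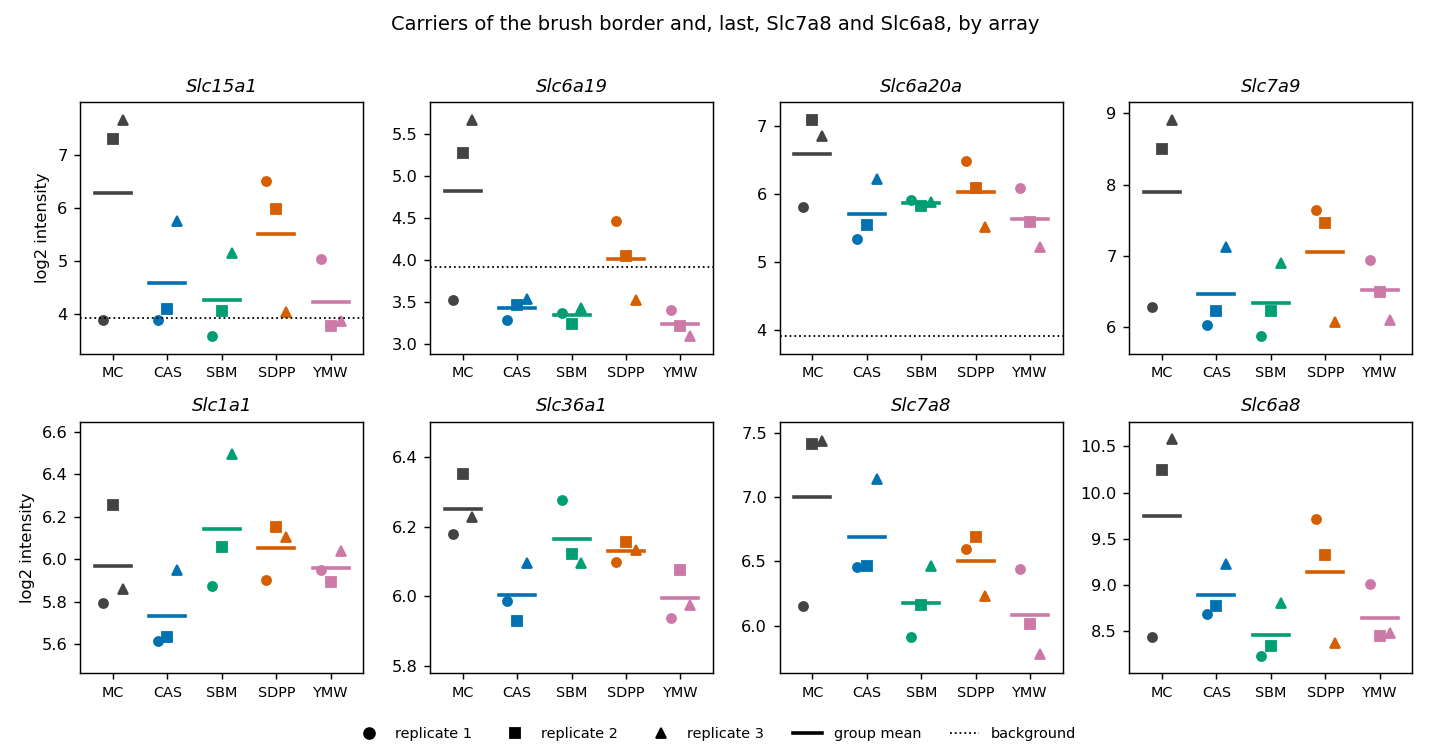
Log2 intensity (vertical axis, a separate range for each gene) of 6 apical carriers and of Slc7a8 and Slc6a8 in the 5 groups (horizontal axis), with 1 symbol per array by replicate number, a bar at the group mean and a dotted line at the background of 3.91 where it falls in range. For Slc15a1, Slc6a19, Slc6a20a, Slc7a9, Slc7a8 and Slc6a8, MC replicates 2 and 3 stand above all 12 treated arrays and MC replicate 1 does not.

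The mean of the apical carriers varied with that of the enterocyte markers over the arrays. The mean log2 intensity of the 8 apical carriers was 4.76 in MC replicate 1, 5.96 in MC replicate 2 and 6.07 in MC replicate 3, and it ran from 4.61 to 5.54 over the treated arrays. Among the treated arrays, SDPP replicate 1 was highest for both means, at 5.54 for the carriers and 9.89 for the markers. SDPP replicate 2 followed, at 5.29 and 9.48, and then CAS replicate 3, at 5.19 and 9.38. Slc1a1 and Slc36a1 differed from this order, and their highest treated arrays were SBM replicate 3 and SBM replicate 1. The 20 enterocyte markers were all above background, and 6, 11, 2 and 8 of them were lower with CAS, SBM, SDPP and YMW by the study's threshold, with none higher. Their part in the lower level of the carriers was not tested.

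**Figure D3:**
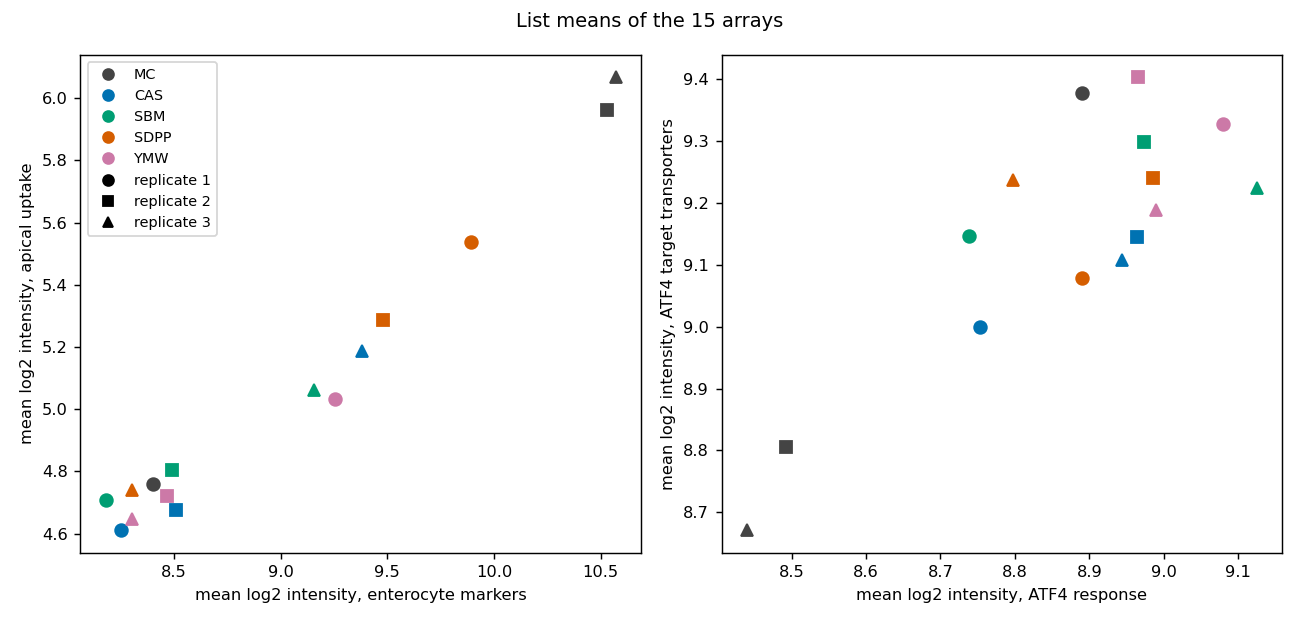
Each point is 1 of the 15 arrays, coloured by group and shaped by replicate number, with mean log2 intensities on all axes. On the left the mean of 8 apical carriers is set against that of 20 enterocyte markers, and MC replicates 2 and 3 lie at the top right while MC replicate 1 lies with the treated arrays. On the right the mean of the 9 transporters known as ATF4 targets is set against 14 other genes of the ATF4 response, and MC replicates 2 and 3 lie at the bottom left.

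Some other genes whose products serve amino acid absorption at the brush border were lower. Of 12 measured genes, 5 were lower with CAS, 4 with YMW, 3 with SBM and 1 with SDPP, none was higher, and 7, 8, 9 and 11 did not pass. Mme, which encodes the peptidase neprilysin, was the 1 that passed with all 4 sources, with log2 fold changes of −1.15, −1.02, −0.97 and −1.23 (SE 0.36). Mep1b, a subunit of the peptidase meprin, was lower, at −1.53 with CAS, −1.42 with SBM and −1.60 with YMW (SE 0.58). Slc9a3r1, which encodes a scaffold for brush border carriers, was lower, at −0.81, −0.81 and −0.78 with the same sources (SE 0.28). In contrast, Anpep, which encodes aminopeptidase N and was chosen after its values were seen, had log2 differences between 0.00 and 0.57. The mean of the 12 genes was 5.84, 6.87 and 6.95 in MC replicates 1, 2 and 3 and 5.76 to 6.63 in the treated arrays.

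The promoters of Slc7a9 and Slc6a20a are shown because both genes were lower with CAS, SBM and YMW and their windows hold motifs of intestinal factors. The sequences are from RefSeq on GRCm38.p6, and each window runs from 250 bases before the start of the transcript to 50 after it. Capitals mark a GATA motif, spelled AGATAA, or an HNF1 half-site, spelled GTTAATN, on either strand.
Slc7a9, plus strand, chr7:35448842-35448976: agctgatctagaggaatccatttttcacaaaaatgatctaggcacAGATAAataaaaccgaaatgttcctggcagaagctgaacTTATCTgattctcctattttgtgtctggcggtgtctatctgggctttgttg
Slc6a20a, minus strand, chr9:123678837-123678933: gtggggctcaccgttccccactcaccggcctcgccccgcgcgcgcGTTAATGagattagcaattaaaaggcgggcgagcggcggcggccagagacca
The matches begin 205 and 166 bases before the start for Slc7a9 and 56 bases before it for Slc6a20a. The GATA motif was found in 11.2% of all 32851 promoters and in 3 of the 64 promoters of 47 transporters that could be matched, or 4.69%. The HNF1 half-site was found in 7.08% of all promoters and in 5 of the 64, or 7.81%. The apical carrier Slc36a1, which gave no call, also holds it, beginning 243 bases before the start. A CDX2 motif spelled TTTATNG was in 10.9% of all promoters and 1 of the 64, and an HNF4 motif spelled CAAAGTCC was in 1.42% of all and in none of the 64. Such a match is a description of the letters and is not a bound site.

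Among the 5 measured carriers of basolateral exit, 1 was lower with SBM, 1 was lower and 1 higher with YMW, and none passed with CAS or SDPP. Slc7a8 encodes LAT2, the light chain that exchanges neutral amino acids at the basolateral membrane. Its MC arrays gave 6.15, 7.41 and 7.44 in replicates 1, 2 and 3. The values were 6.45, 6.47 and 7.14 with CAS, 5.91, 6.16 and 6.46 with SBM, 6.60, 6.69 and 6.23 with SDPP, and 6.44, 6.02 and 5.78 with YMW. CAS replicate 3 was the highest treated array, and with CAS the log2 difference of −0.32 (adjusted p = 0.676) did not pass. Slc7a8 was lower, at −0.82 with SBM (SE 0.30, adjusted p = 0.199) and −0.92 with YMW (SE 0.30, adjusted p = 0.146). The call with YMW remained without MC replicate 2 (−0.71) and without MC replicate 3 (−0.70), while that with SBM was lost in both cases, at −0.62 and −0.61.

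Slc43a1 encodes LAT3, a facilitative carrier of branched-chain and aromatic amino acids. Its log2 intensity was 4.59, 4.49 and 3.92 in MC replicates 1, 2 and 3, 4.91, 4.93 and 4.78 with CAS, 4.73, 4.88 and 4.93 with SBM, 4.78, 4.82 and 5.02 with SDPP, and 4.57, 5.25 and 4.99 with YMW. All 9 arrays of CAS, SBM and SDPP were above all MC arrays, and YMW replicate 1, at 4.57, was just below MC replicate 1, at 4.59. Yet it was YMW that passed, at 0.61 (SE 0.18, adjusted p = 0.120), while CAS, SBM and SDPP gave 0.54, 0.51 and 0.54 at the same SE, with an unadjusted p under 0.05 and a change under 1.5-fold (adjusted p = 0.150, 0.187 and 0.348). The call with YMW was lost without MC replicate 3, where the change was 0.40.

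Slc43a2, the related gene of LAT4, went the other way, with MC values of 5.31, 6.13 and 6.22 and treated values from 5.34 to 5.93. MC replicate 1 was below all treated arrays and MC replicates 2 and 3 above them, and the log2 differences of −0.25 to −0.38 did not pass. Slc7a6, the light chain that exchanges basic for neutral amino acids, had MC values of 8.19, 7.52 and 7.36 and treated values from 7.77 to 8.20. Its log2 difference was 0.42 with CAS (adjusted p = 0.227), under 1.5-fold, and 0.26 to 0.33 with the other sources.

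Slc3a2 encodes 4F2hc, the heavy chain that Slc7a5, Slc7a6, Slc7a8 and Slc7a11 need to reach the membrane. Its range over all arrays was narrow. Its log2 intensity was 10.75, 10.53 and 10.61 in MC replicates 1, 2 and 3, 10.54, 10.52 and 10.50 with CAS, 10.67, 10.79 and 10.86 with SBM, 10.60, 10.73 and 10.67 with SDPP, and 10.86, 10.90 and 10.83 with YMW. All 3 CAS arrays were below all 9 arrays of the other sources. The log2 difference of CAS from the mean of the other 3 sources was −0.25 (SE 0.06, adjusted p = 0.166), a change of 1.19-fold. With YMW it was 0.21 (SE 0.06, adjusted p = 0.565), and 1 SBM array lay within the YMW range. Neither reached 1.5-fold. Against the MC the difference was −0.11 with CAS (adjusted p = 0.455) and 0.23 with YMW (adjusted p = 0.120), and YMW did not overlap the MC.

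Each source was also compared with the mean of the other 3, and no transporter passed the study's threshold in any of these 4 comparisons. Of all genes, 0.159%, 0.0266%, 0.0159% and 0.0691% passed for CAS, SBM, SDPP and YMW. The MC means do not enter these differences, but the MC arrays do enter the pooled variance behind the SE and p. Where the MC spread was the larger, as for Slc15a1, that SE is too large for a comparison between sources. Of 260 member values, 8 had an unadjusted p under 0.05, and none of them passed an adjusted p of 0.05. These were 3, 1, 1 and 3 members in the same order, or 4.62%, 1.54%, 1.54% and 4.62%, beside 5.36%, 4.83%, 2.42% and 5.50% of all genes. Arrays did not overlap with those of the other sources for 1 member with CAS and 1 with YMW, beside 1.90%, 1.04%, 0.622% and 1.41% of all genes. The member was Slc3a2 with CAS and, with YMW, Slc15a4, a lysosomal carrier of histidine and peptides that was chosen after its values were seen. Slc15a4 was 7.39, 7.44 and 7.45 in the YMW arrays, at most 7.38 in those of the other sources, and 7.33, 7.23 and 7.14 in the MC. Its difference from the other sources was 0.16 (SE 0.07, adjusted p = 0.925). Besides the values of Slc3a2 they included Slc1a1 with CAS, lower, at −0.32 (SE 0.13, adjusted p = 0.848). The highest value of a member against the other sources was that of Slc15a1 with SDPP, 1.16 (SE 0.72, unadjusted p above 0.05).

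**Figure D4:**
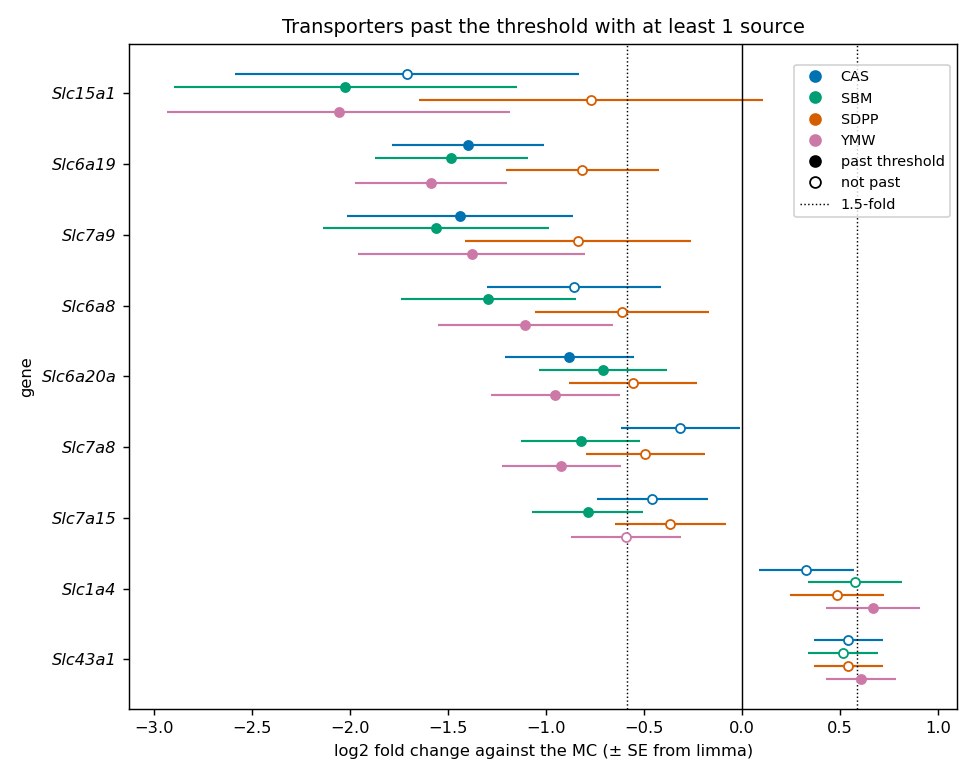
Log2 fold change against the MC (horizontal axis, with the SE from limma as bars) of the 9 transporters that passed the study's threshold with at least 1 source (vertical axis), by source. Filled symbols passed and open symbols did not, dotted lines mark 1.5-fold, and the SDPP symbols are all open.

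Of 13 measured carriers that supply the cell itself, 1 was higher with YMW and no other call was made with any source, and the list's median log2 fold change was 0.07, 0.15, 0.20 and 0.25 with CAS, SBM, SDPP and YMW. The gene was Slc1a4, which encodes ASCT1, a sodium-dependent exchanger of alanine, serine and cysteine. Its log2 intensity was 9.52, 8.54 and 8.18 in MC replicates 1, 2 and 3, 9.10, 9.09 and 9.03 with CAS, 9.19, 9.44 and 9.33 with SBM, 8.99, 9.21 and 9.49 with SDPP, and 9.23, 9.55 and 9.45 with YMW. MC replicates 2 and 3 were below all treated arrays and MC replicate 1 was above all but 1 of them. The change was 0.67 with YMW (SE 0.24, adjusted p = 0.167), and 0.58 with SBM (adjusted p = 0.234), just under 1.5-fold. With YMW it was 0.56 without MC replicate 2 and 0.38 without MC replicate 3, neither past the threshold, and against MC replicate 1 alone it was −0.11. Slc38a1, a sodium-coupled carrier of glutamine that was chosen after its values were seen, had MC values of 10.87, 11.28 and 11.36 and treated values from 10.67 to 11.27. Its log2 differences of −0.16 to −0.27 did not pass. The mean of 10 proliferation markers was 8.96, 7.96 and 7.47 in MC replicates 1, 2 and 3 and 8.59 to 8.95 in the treated arrays, and the 4 sources, in the order used above, had 9, 8, 7 and 6 of them past the threshold as higher. Their part in the levels of these carriers was not tested.

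For 6 of the 9 transporters known as ATF4 targets, MC replicates 2 and 3 lay below all treated arrays, and for Slc3a2, Slc7a3 and Slc38a2 both lay within the treated range. For Slc1a5, 1 of the 6, MC replicate 2 and the lowest treated array were both at 9.15. Taken singly, MC replicates 2 and 3 lay below that range for 18.3% and 21.1% of all genes. The share of all genes with both below it was not counted. The 9 genes' median log2 fold change for CAS, SBM, SDPP and YMW was 0.15, 0.26, 0.22 and 0.36, with Slc1a4 in YMW as its 1 call. The mean of the 9 genes was 9.38, 8.80 and 8.67 in MC replicates 1, 2 and 3 and 9.00 to 9.40 in the treated arrays, with a median of 9.21. Slc7a5 encodes LAT1, which brings in leucine and other large neutral amino acids. Its MC values were 9.71, 8.97 and 8.84 and its treated values 9.32 to 9.73, and its differences of 0.48 with SBM (adjusted p = 0.184), 0.38 with SDPP (adjusted p = 0.386) and 0.44 with YMW (adjusted p = 0.176) were under 1.5-fold. Slc7a11 encodes xCT, which imports cystine in exchange for glutamate. Its MC values were 9.96, 8.95 and 8.81 and its treated values 9.21 to 10.08, with the highest in YMW replicate 2, and its difference with YMW was 0.54 (SE 0.23, adjusted p = 0.231), under 1.5-fold.

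Slc6a9, the glycine carrier GlyT1, had MC values of 9.85, 9.04 and 8.89, and MC replicate 1 was above and the other MC arrays below all treated arrays, which lay between 9.41 and 9.73. Slc1a5, which encodes the glutamine exchanger ASCT2, had MC values of 9.48, 9.15 and 8.90 and treated values from 9.15 to 9.51. Slc7a1, the carrier of basic amino acids CAT1, had MC values of 9.91, 9.41 and 9.29 and treated values from 9.56 to 9.95. Slc7a3, a second carrier of basic amino acids, had MC values of 4.65, 4.34 and 4.33, and its difference with YMW was 0.53 (SE 0.21, adjusted p = 0.189), under 1.5-fold. Slc38a2 encodes SNAT2, the sodium-coupled carrier that cells induce when amino acids are short. It had MC values of 10.57, 10.32 and 10.19, treated values from 10.13 to 10.51 and log2 differences between −0.09 and 0.10.

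**Figure D5:**
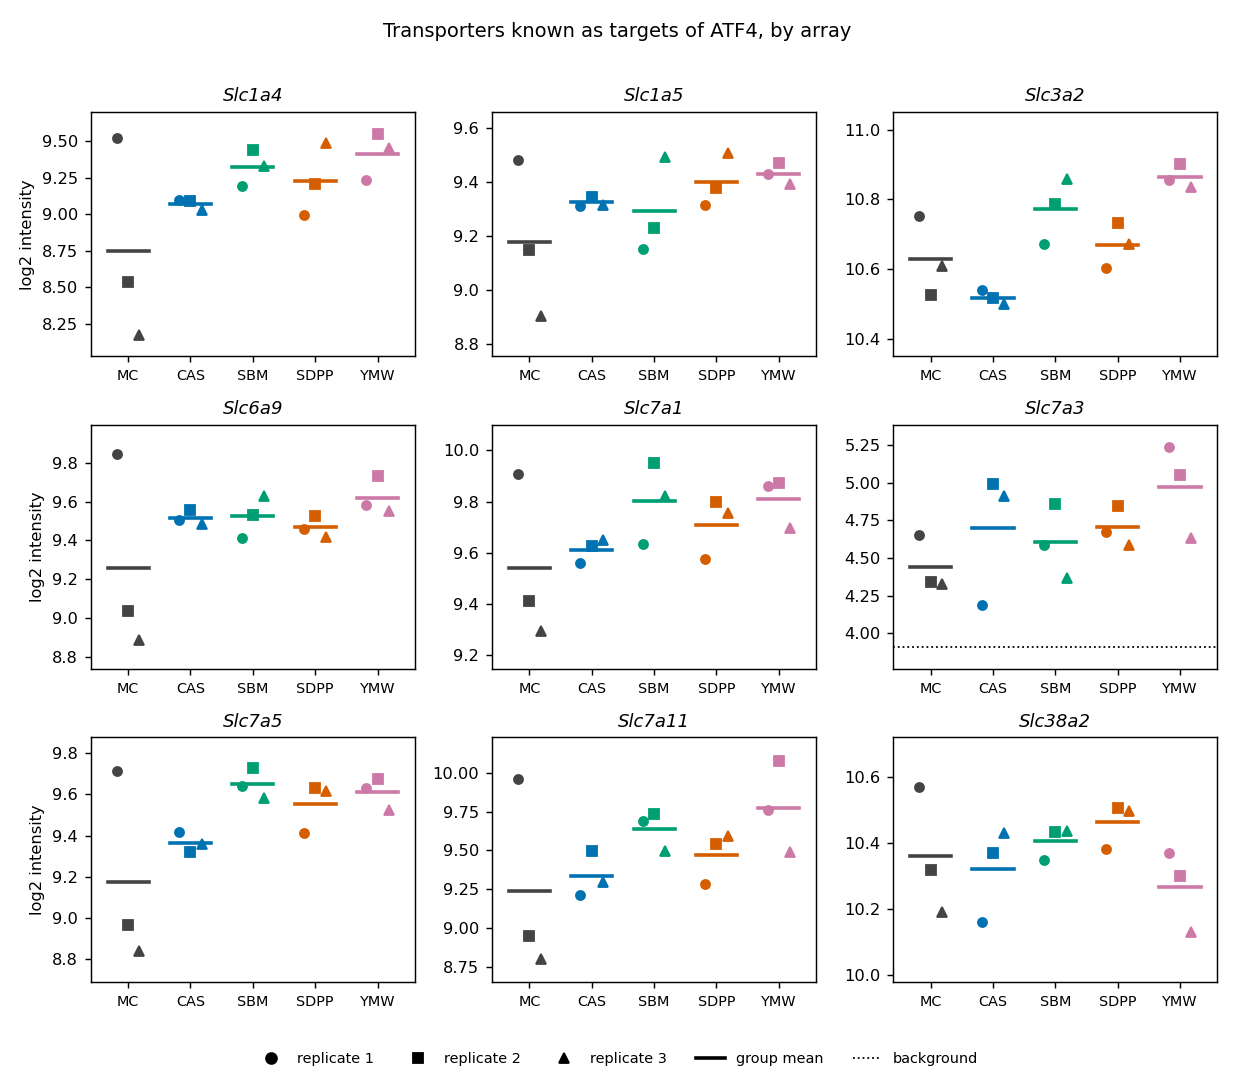
Log2 intensity (vertical axis, a separate range for each gene) of the 9 transporters known as ATF4 targets in the 5 groups (horizontal axis), with 1 symbol per array by replicate number, a bar at the group mean and a dotted line at the background in the panel it falls in. In Slc1a4, Slc1a5, Slc6a9, Slc7a1, Slc7a5 and Slc7a11 MC replicate 1 stands well above both other MC arrays, and in Slc3a2 the CAS arrays are below those of the other sources.

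Of 14 measured genes of the ATF4 response outside the transporter families, CAS and SDPP each gave 2 as higher, SBM 5 and YMW 4, and none was lower. Trib3, which encodes a pseudokinase induced by ATF4, was higher by 0.70, 0.73, 0.62 and 0.76 with CAS, SBM, SDPP and YMW (SE 0.17), and in each case its groups did not overlap. Ddit4, an inhibitor of mTORC1 signalling, was higher by 1.27, 0.85, 0.82 and 1.19 (SE 0.22), with an adjusted p of 0.0211 with CAS and 0.0654 with YMW. Sesn2, which encodes a leucine sensor, was higher by 0.66 with SBM and 0.73 with YMW (SE 0.18). Nupr1, a stress-induced chromatin regulator, was higher by 0.65 with SBM and 0.90 with YMW (SE 0.26). Ppp1r15a, named to complete the count with SBM, encodes the phosphatase subunit GADD34 and was higher by 0.61 with it (SE 0.17). Asns, the asparagine synthetase gene, and Atf4 itself, both chosen after their values were seen, had log2 differences of 0.06 to 0.17 and of −0.04 to 0.07. The mean of the 14 genes was 8.89, 8.49 and 8.44 in MC replicates 1, 2 and 3 and 8.74 to 9.13 in the treated arrays, and its part in the levels of the transporters was not tested.

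The promoters of Slc7a11 and Slc1a4 are shown because these are the 2 ATF4 targets on the list whose matched promoters hold the C/EBP-ATF response element, the composite site that ATF4 binds with C/EBP proteins. It was spelled TGATGNAA on either strand, and capitals mark it.
Slc7a11, minus strand, chr3:50443614-50443724: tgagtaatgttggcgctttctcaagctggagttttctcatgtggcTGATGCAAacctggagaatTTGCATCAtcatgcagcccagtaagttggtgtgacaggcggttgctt
Slc1a4, minus strand, chr11:20332705-20332762: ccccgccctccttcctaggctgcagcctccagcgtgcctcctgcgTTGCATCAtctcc
Slc7a11 holds it on both strands, at 66 and 47 bases before the start, and in Slc1a4 it begins 4 bases before the start and runs past it. The element was found in 3.97% of all promoters and in 4 of the 64 transporter promoters, or 6.25%. The other matches were in Slc6a21 and Slc15a5, which are not on the list. An antioxidant response element spelled TGACNNNGC was in 12.4% of all promoters and in 11 of the 64, or 17.2%. Those 11 promoters belong to 9 genes, and the overlapping windows of Slc7a6 count the same site again. None of the 4 promoters shown held a match to another of the motifs searched. No promoter of Slc7a5 or Slc1a5 was matched.

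Of the 4 carriers of osmolytes and creatine, 1 was lower with SBM and 1 with YMW. In both cases it was Slc6a8, the creatine transporter. Its log2 intensity was 8.43, 10.24 and 10.58 in MC replicates 1, 2 and 3, 8.68, 8.77 and 9.23 with CAS, 8.23, 8.34 and 8.80 with SBM, 9.72, 9.33 and 8.37 with SDPP, and 9.00, 8.45 and 8.48 with YMW. Its order over the arrays resembled that of Slc7a9, with SDPP replicates 1 and 2 as the highest treated arrays of both genes. Slc6a8 was lower, at −1.29 with SBM (SE 0.44, adjusted p = 0.187) and −1.11 with YMW (SE 0.44, adjusted p = 0.204), while −0.86 with CAS (adjusted p = 0.358) did not pass. Both calls were lost without MC replicate 2, at −1.05 and −0.86, and without MC replicate 3, at −0.88 and −0.69. Slc6a6, the taurine carrier, had MC values from 9.91 to 10.01 and treated values from 9.47 to 10.16, and was chosen after its values were seen. Its log2 differences were −0.04 to −0.26.

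Slc7a15, a light chain of the Slc7 family, passed as lower with SBM (adjusted p = 0.194). Its MC values of 3.09, 3.92 and 4.69 and its SBM values of 3.02, 3.05 and 3.26 had both group means below background, so no fold is given.

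None of the 4 lysosomal carriers and none of the 11 measured carriers of neurotransmitters passed with any source. The lysosomal carriers, which include Slc38a9, a sensor of lysosomal arginine, had log2 differences between −0.06 and 0.19. Of the carriers of neurotransmitters, 5 were above background. The serotonin transporter gene Slc6a4, chosen after its values were seen, had MC values of 5.29, 6.52 and 6.49 in replicates 1, 2 and 3 and treated values from 5.09 to 6.12. As for Slc7a9, both higher MC arrays were above all treated arrays, and its log2 differences were −0.65, −0.58, −0.35 and −0.56 with CAS, SBM, SDPP and YMW (SE 0.31), none past the threshold.

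Slc36a4, a carrier of proline and tryptophan related to Slc36a1, was chosen after its values were seen. All 3 of its MC arrays lay below all 12 treated arrays, and the share of all genes with this order was not counted. Its log2 intensity was 4.04, 4.03 and 4.03 in the MC, 4.49, 4.26 and 4.16 with CAS, 4.12, 4.23 and 4.27 with SBM, 4.37, 4.34 and 4.62 with SDPP, and 4.05, 4.39 and 4.53 with YMW. The MC arrays were thus below every treated array, all values were close to the background of 3.91, and YMW replicate 1 was barely above the MC. The log2 differences were 0.27, 0.18, 0.41 and 0.29 with CAS, SBM, SDPP and YMW (SE 0.12), and all were under 1.5-fold. The adjusted p was 0.291, 0.476, 0.348 and 0.228.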

How the data were processed

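The authors hybridized RNA to Affymetrix mouse gene 1.1 ST arrays, and the deposited intensity values were made by RMA, whose version is not given in the sources used here. RMA corrects background, equalizes the arrays and summarises each probe set. The intensities are linear, from 3.02 to 10739, with array medians of 21.7 to 24.1, and log2 was taken here. RMA pulls arrays towards 1 distribution, so a shift of most genes would not be seen. Of 35556 probe sets, 21218 had 1 symbol in the platform annotation, 1881 several and 12457 none, and 18820 genes resulted. Groups came from the labels.

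Differences were fitted with limma 3.58.1 in R 4.3.3, with 5 group means on 15 arrays and variances moderated by a trend on intensity, and the script was tested on simulated data. The members and gene lists were chosen with earlier results of these data known. Named are all members past the threshold, all measured members of the lists of apical uptake, basolateral exit and ATF4 targets, up to 4 past the threshold of each list outside the families, and a few more, said in each case to be picked with their values known. Alternatives changed the moderation of variances, replicate block, arrays in the fit, filter on dim genes, normalization, array weights, threshold and probe sets, left out each array, or used MC replicate 1 as the only control. Arrays of the same replicate number showed no clear resemblance, which does not exclude a weaker pairing. Promoters are RefSeq on GRCm38.p6. No genome or protein sequence was used here, and the ATP, lipid, imaging and RT-qPCR measurements are not analysed here.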

Additional observations from a re-analysis of the deposited data

How the results depend on the processing

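The counts of transporters past the threshold against the MC, 3, 7, 0 and 8 for CAS, SBM, SDPP and YMW, changed with the MC arrays that were used. When each array was left out in turn they ranged from 1 to 12 for CAS, 1 to 13 for SBM, 0 to 12 for SDPP and 3 to 15 for YMW, and the highest came without MC replicate 1 in each. Without MC replicate 3 they were 1, 1, 0 and 3. Against the other sources the range was 0 to 4 with SDPP, where 4 came without SDPP replicate 3, and 0 throughout with CAS, SBM and YMW. With MC replicate 1 as the only control, which leaves that group's spread to be taken from the others, the counts were 1, 0, 0 and 0. Of the 18 values past the threshold, 11 turned their sign there and the other 7 lost the call. The log2 fold change of Slc7a9 was then 0.18, 0.056 and 0.24 with CAS, SBM and YMW. With SBM that of Slc15a1, Slc6a8, Slc6a20a, Slc7a15 and Slc7a8 was 0.37, 0.026, 0.060, 0.018 and 0.025. With YMW that of Slc15a1, Slc6a8 and Slc1a4 was 0.34, 0.21 and −0.11. MC replicate 1 was below background for Slc15a1 and Slc7a15, so the sign of these 3 of the 11 values is not a measured difference. With array weights, where MC replicate 1 received 0.243 and MC replicate 2 received 2.61, the counts were 8, 12, 8 and 13, and 3 with SDPP against the other sources. With the arrays of the groups compared alone, SBM and YMW each gave 4, and SDPP against the other sources gave 2. With genes above background alone SBM gave 4, as Slc6a19 and Slc7a15 were not tested there and Slc6a20a lost its call. SDPP gave 1 after a second quantile normalization and 1 with arrays centred on their median. No threshold on the fold change gave 10, 11, 7 and 17 against the MC, where all genes gave 3104, 3430, 2259 and 3583 of 18820, and 3, 1, 1 and 3 against the other sources, where all genes gave 1008, 909, 456 and 1036. An adjusted p of 0.05 gave 0 in every comparison, and a log2 fold change of at least 1.5 gave 0, 2, 0 and 2 against the MC. The remaining causes were not tested. With the replicate block the counts were 3, 6, 0 and 8 against the MC and 0 against the other sources. Over 30 same-numbered pairs the correlation of deviations had a median of −0.08 and ran from −0.59 to 0.45, 9 pairs were over 0.1, and 2 of 15 arrays were most like an array of their own number. Over all 500 alternative values of the 18 calls, 389 kept side and sign, 100 lost the call and 11 turned their sign. Genes near background or with some arrays below it, such as Slc15a1, Slc6a19, Slc7a15 and Slc36a4, have changes limited by the signal.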
